A study of Mus musculus with 6 samples.

Results

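Interstitial immune content of the mouse testis was followed through 10 genes: the macrophage receptors Csf1r, Mrc1 and Cd68, the 3 chains of complement C1q (C1qa, C1qb, C1qc), and the MHC class II genes H2-Aa, H2-Ab1 and H2-Eb1 with their chaperone Cd74. They were taken by symbol from the 24411 genes measured, and each symbol was found once in every library. RNA of whole testes from C57BL/6 mice, a standard inbred strain, was sequenced in 6 libraries. The label of 3 libraries reads MRP5-/- and MRP9-/- (double knockout, libraries DKO 1 to DKO 3), and that of the other 3 wildtype (WT 1 to WT 3). The animals were age matched, and their age, the alleles used and any pooling of animals are not given in the sources used here. MRP5 and MRP9 are membrane transporters of the ABCC family, encoded by Abcc5 and Abcc12. The design text speaks of mice without tying each library to an animal, so the p-values measure the spread between these samples.

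Macrophages are the most abundant leukocytes of the testis. Those of the interstitium lie among the Leydig cells and are known for the growth factor receptor CSF1R and the mannose receptor MRC1 (CD206), while those on the wall of the seminiferous tubules are known for MHC class II and low CSF1R. C1q starts the classical complement pathway and binds dying cells, and tissue macrophages are its main source. MHC class II molecules display peptides to helper T cells, and CD74 occupies their groove until a peptide is loaded.

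The total expected count ran from 42673615 to 67131103 in the libraries labelled DKO and from 26753721 to 31745969 in those labelled WT. The mean fragment length ran from 275.5 to 317.4 bases and from 230.4 to 257.9 bases. Neither range overlapped between the labels (exact permutation test, two-sided p = 0.1 for each, the smallest that 3 against 3 allows). The targeted genes gave a mixed check of the labels. Abcc12 was lower under the DKO label, at 79.0 ± 5.56 CPM (counts relative to library size, scaled by TMM) against 160 ± 3.93 (SD, n = 3; log2 fold change -1.02, edgeR adjusted p = 0.000307). Abcc5 was higher, at 16.8 ± 0.190 against 11.4 ± 0.898 CPM (log2 fold change 0.56, edgeR adjusted p = 0.0225), the direction opposite to a loss of transcript. The alleles are not given, so the total over the gene cannot settle that label either way. Every direction given here is therefore that of the libraries labelled DKO over those labelled WT. In the test over all genes 1856 of 17110 were called at an adjusted p under 0.05, which is 10.8%, with 984 higher (5.75%) and 872 lower (5.1%). On the log2(TPM + 1) scale the split was 279 higher and 456 lower.

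Promoters of the members were searched for short sequences known from control regions. Of the 10 members, 6 have 1 entry in the RefSeq promoter table (GRCm38.p6), namely H2-Aa, H2-Eb1, Cd68, Mrc1, C1qb and C1qc. MHC class II genes are switched on through a paired X box and Y box, read by the RFX and NF-Y factors, while PU.1, the master regulator of the macrophage lineage, binds purine-rich GGAA cores. The 250 bases upstream of each start were searched on both strands for the X box core GCAACT, the Y box CTGATTGG and the PU.1 core GAGGAA. Stretches of 80 bases that hold a match are shown 5′ to 3′ on the strand of the gene, with the matched letters in capitals.
H2-Aa, chr17:34287846-34287925, minus strand: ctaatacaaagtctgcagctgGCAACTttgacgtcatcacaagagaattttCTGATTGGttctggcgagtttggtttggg
H2-Eb1, chr17:34305754-34305833, plus strand: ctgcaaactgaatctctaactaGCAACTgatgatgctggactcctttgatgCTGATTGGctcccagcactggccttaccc
Cd68, chr11:69666341-69666420, minus strand: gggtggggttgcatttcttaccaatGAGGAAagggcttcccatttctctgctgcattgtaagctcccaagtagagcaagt
Mrc1, chr2:14229334-14229413, plus strand: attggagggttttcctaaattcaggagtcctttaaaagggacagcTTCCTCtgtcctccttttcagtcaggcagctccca
C1qb, chr4:136886201-136886280, minus strand: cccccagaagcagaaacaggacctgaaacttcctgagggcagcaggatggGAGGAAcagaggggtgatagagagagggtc
C1qc, chr4:136893065-136893144, minus strand: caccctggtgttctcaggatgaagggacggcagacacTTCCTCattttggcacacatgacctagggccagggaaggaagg

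H2-Aa held the X box core starting 81 bases and the Y box starting 51 bases upstream of its start site, and H2-Eb1 held them at 91 and 62 bases. Each motif alone was common, the X box core lying in 9.01% and the Y box in 3.83% of 32851 promoters. An X box core followed by the Y box on the same strand within 50 bases was found in 11 promoters (0.0335%), among them H2-Aa, H2-Eb1 and the related class II gene H2-Eb2. The PU.1 core, 23.3% of all promoters holding it, was found upstream of Cd68 (225 bases), C1qb (30 bases), C1qc (193 bases, as its reverse complement TTCCTC) and Mrc1 (180, 167 and 35 bases, all as TTCCTC). No GAGGAA or TTCCTC lay in the windows of H2-Aa and H2-Eb1, and no X box core or Y box in the other 4. A match is a run of letters and was not tested as a binding site.

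All 10 members were detected in every library, and all 10 passed the filter on low counts. Levels are given in TPM, a share of all transcripts that corrects for gene length. H2-Ab1 had the highest mean over the 6 libraries (20.9 TPM), then C1qb (17.45), Cd74 (15.4), C1qc (15.1), C1qa (12.5), H2-Aa (10.5), Mrc1 (8.56), H2-Eb1 (7.78), Csf1r (4.87) and Cd68 (2.54). The ranges over the libraries overlapped for every neighbouring pair in this order. Within every library C1qc lay above C1qa and Csf1r above Cd68. All other neighbouring pairs changed order between libraries, so their order is not firm. Between 50.4% (Cd68) and 77.3% (H2-Ab1) of all measured genes lay below these means. Together the members took 0.00987%, 0.0099% and 0.0107% of the expected counts in DKO 1, 2 and 3 and 0.009%, 0.012% and 0.0112% in WT 1, 2 and 3. The summed share was thus spread over a wider range within the WT label than within the DKO label, and the labels overlapped. It is a share of counts and was not tested as a measure of cell content.

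**Figure D1:**
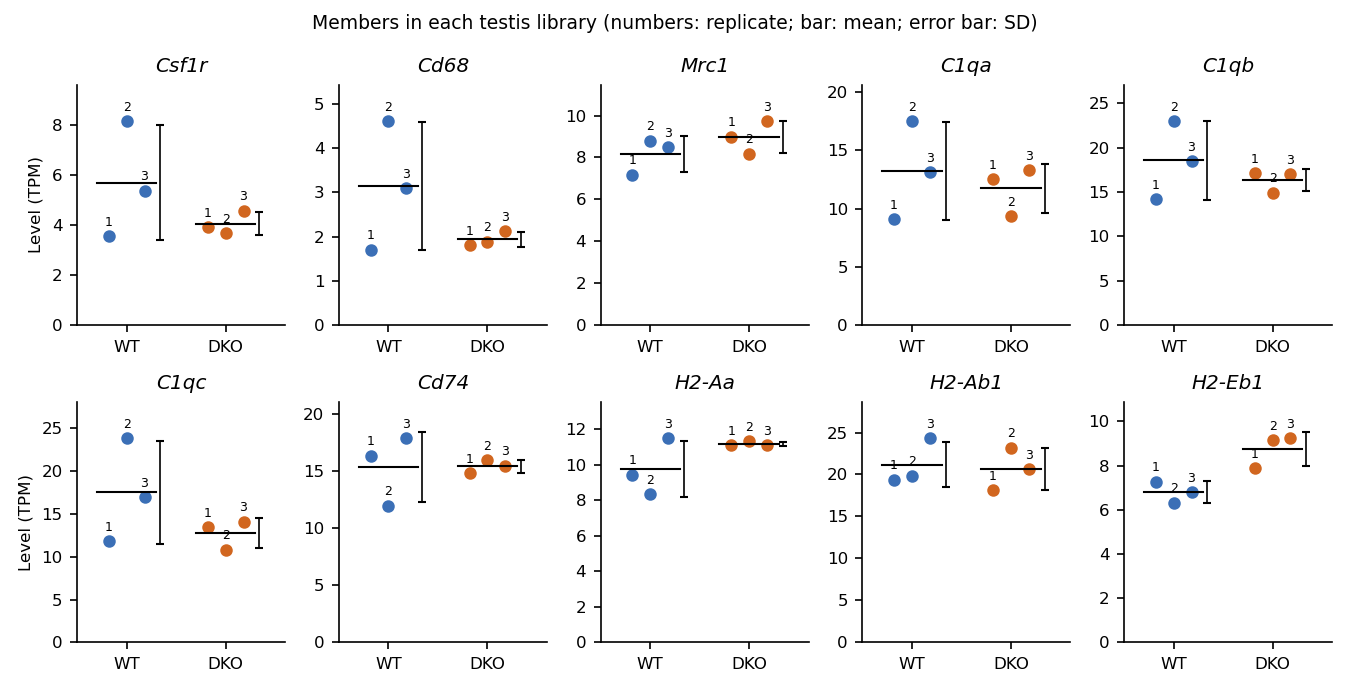
Level of each of the 10 genes in TPM in every library, with the replicate number above each point, the mean as a bar and the SD as an error bar (n = 3). For Csf1r, Cd68 and the 3 C1q genes WT 2 is the highest point (Csf1r 8.15 TPM) and WT 1 lies near the libraries labelled DKO (Csf1r 3.56 TPM).

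Csf1r encodes the receptor for CSF1 and IL-34, on which most tissue macrophages depend. It stood at 3.91, 3.67 and 4.57 TPM in DKO 1, 2 and 3 and at 3.56, 8.15 and 5.38 TPM in WT 1, 2 and 3. WT 2 and WT 3 were the highest libraries and WT 1 the lowest, so the labels overlapped. The log2 fold change was -0.42 (SE 0.199, 95% interval -0.86 to 0.02), which did not pass the test (edgeR adjusted p = 0.174). In whole tissue, fewer macrophages and less RNA per macrophage cannot be told apart.

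Cd68, a lysosomal membrane glycoprotein of phagocytes, was the least expressed member, at 1.81, 1.89 and 2.13 TPM in DKO 1, 2 and 3. In WT 1, 2 and 3 it was at 1.71, 4.61 and 3.10 TPM, again with WT 1 lowest and WT 2 highest. Its counts, from 31 in WT 1 to 99 in WT 2, were the smallest of the group. It had a log2 fold change of -0.70 (SE 0.272, 95% interval -1.30 to -0.11), with an edgeR adjusted p of 0.104 over all genes.

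Mrc1, an endocytic receptor for mannosylated glycoproteins, did not share this order. It was at 8.99, 8.18 and 9.73 TPM in DKO 1, 2 and 3 and at 7.17, 8.80 and 8.49 TPM in WT 1, 2 and 3. The labels overlapped in TPM, where DKO 2 lay below WT 2 and WT 3. In CPM they did not, with 32.1, 29.9 and 33.0 against 25.2, 28.2 and 28.7. The log2 fold change was 0.21 (SE 0.0815, 95% interval 0.03 to 0.39; edgeR adjusted p = 0.105). The ratio of Mrc1 to Csf1r in TPM was 2.30, 2.23 and 2.13 in the libraries labelled DKO, a narrow range, and 2.01, 1.08 and 1.58 in those labelled WT, where every value was lower. That ratio was singled out after its values were seen and was not tested.

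C1qa, C1qb and C1qc encode the A, B and C chains, which assemble together into one C1q molecule, and lie side by side on mouse chromosome 4 (GRCm38, from 136880126 to 136898844). C1qa was at 12.5, 9.34 and 13.3 TPM in DKO 1, 2 and 3 and at 9.07, 17.5 and 13.1 TPM in WT 1, 2 and 3. C1qb was at 17.1, 14.9 and 17.0 TPM and at 14.2, 23.0 and 18.5 TPM in the same order of libraries. C1qc was at 13.45, 10.8 and 14.1 TPM and at 11.8, 23.8 and 16.95 TPM. All 3 chains were highest in WT 2 and next highest in WT 3. WT 1 was the lowest library for C1qa and C1qb and the second lowest, after DKO 2, for C1qc. The labels overlapped for each chain. C1qa had a log2 fold change of -0.18 (SE 0.186, 95% interval -0.59 to 0.23), with an adjusted p of 0.544 in edgeR. That of C1qb was -0.19 (SE 0.135, 95% interval -0.48 to 0.11) with an adjusted p of 0.358 in edgeR. That of C1qc was -0.46 (SE 0.186, 95% interval -0.87 to -0.05) with an adjusted p of 0.116 in edgeR.

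The chains kept close proportions in spite of the spread of their sum, which was 43.1, 35.05 and 44.4 TPM in DKO 1, 2 and 3 and 35.05, 64.3 and 48.6 TPM in WT 1, 2 and 3. C1qb gave 35.7% to 42.4% of the C1q counts of a library and C1qa 26.4% to 30.6%. C1qc gave 30.8%, 30.3% and 31.3% in DKO 1, 2 and 3 and 33.2%, 36.5% and 34.4% in WT 1, 2 and 3. These shares of C1qc did not overlap between the labels. Their 95% Wilson intervals did for WT 1 and WT 3, for example 27.9% to 33.8% in DKO 1 and 29.3% to 37.4% in WT 1. That of WT 2 (33.8% to 39.4%) lay above those of DKO 2 (27.4% to 33.5%) and DKO 3 (29.0% to 33.6%) and met that of DKO 1 at its bound. Intervals cover counting error only, and the comparison of shares was made after the values were seen.

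H2-Aa encodes the class II alpha chain and H2-Ab1 and H2-Eb1 the beta chains of the A and E molecules. C57BL/6 mice are known to lack a working E alpha chain, so that H2-Eb1 is transcribed without an E molecule at the surface. H2-Eb1 was at 7.88, 9.16 and 9.23 TPM in DKO 1, 2 and 3 and at 7.28, 6.32 and 6.81 TPM in WT 1, 2 and 3. Each library labelled DKO lay above each labelled WT, in TPM and in CPM. The log2 fold change was 0.40 (SE 0.118, 95% interval 0.14 to 0.66), and the adjusted p was 0.0504 in edgeR, just past the threshold. The call was made in 5 of 16 alternative settings, with an adjusted p of 0.0356 in DESeq2, 0.0403 without the filter on low counts and 0.0413 without WT 1. The change was between 0.31 and 0.46 and positive in all 16, whose adjusted p ran from 0.0356 to 0.999.

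H2-Aa was at 11.1, 11.3 and 11.1 TPM in DKO 1, 2 and 3 and at 9.42, 8.35 and 11.5 TPM in WT 1, 2 and 3. The values under the DKO label nearly coincided, and WT 3 lay above them. Its log2 fold change was 0.19 (SE 0.135, 95% interval -0.11 to 0.49; edgeR adjusted p = 0.356). H2-Ab1 was at 18.15, 23.2 and 20.6 TPM and at 19.4, 19.9 and 24.3 TPM, with the extremes split between DKO 1 and WT 3. Its log2 fold change was -0.03 (SE 0.127, 95% interval -0.30 to 0.25; edgeR adjusted p = 0.911).

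Cd74, the invariant chain, was at 14.8, 15.9 and 15.45 TPM in DKO 1, 2 and 3 and at 16.3, 11.9 and 17.8 TPM in WT 1, 2 and 3. WT 2, the highest library for Csf1r and C1q, was the lowest for Cd74, H2-Aa and H2-Eb1. Cd74 had a log2 fold change of 0.02 (SE 0.147, 95% interval -0.30 to 0.34; edgeR adjusted p = 0.941).

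**Figure D2:**
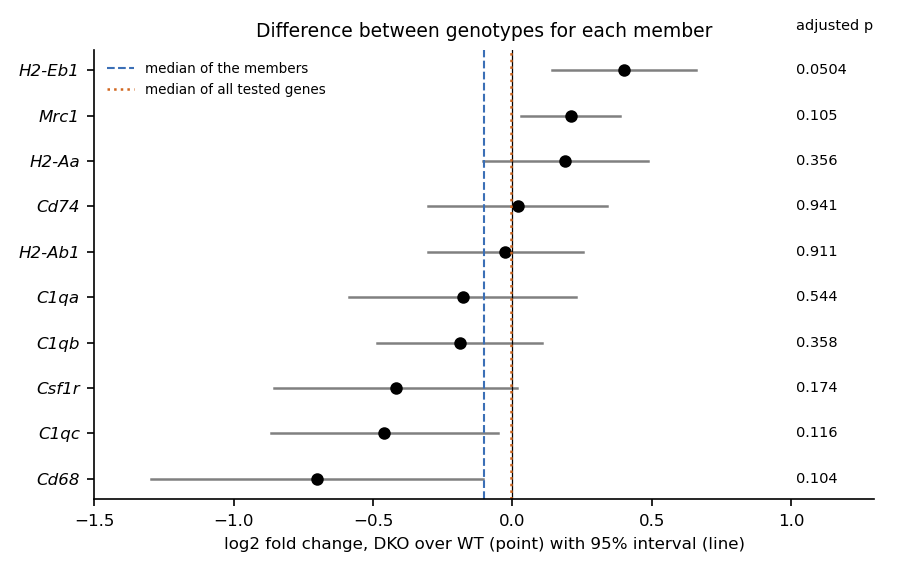
Log2 fold change of each gene, libraries labelled DKO over those labelled WT (point), with its 95% interval (line) and the edgeR adjusted p at the right. H2-Eb1 is highest at 0.40 and Cd68 lowest at -0.70, and the dashed and dotted lines mark the median of the 10 genes (-0.10) and of all tested genes (-0.0042).

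None of the 10 members was called by edgeR, against 10.8% of all tested genes. At an unadjusted p under 0.05 there were 4, namely H2-Eb1 and Mrc1 higher and Cd68 and C1qc lower, beside 31.7% of all genes. In CPM the labels did not overlap for 2 members, H2-Eb1 and Mrc1, both higher under the DKO label. Such genes made up 35.9% of all tested, 18.4% higher and 17.5% lower. These shares of the members are near or under the background and give no result on the group. The median log2 fold change was -0.10, with 6 members lower and 4 higher, beside -0.0042 over all tested genes.

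Which members were called depended on WT 1. Without it, edgeR called 4 members: Csf1r (-0.66, adjusted p = 0.0286), Cd68 (-0.98, 0.0272) and C1qc (-0.67, 0.0279) lower and H2-Eb1 (0.46, 0.0413) higher, and the median of the members was -0.21. The same fit called 2037 of 17447 genes in all, 986 higher and 1051 lower. Without WT 2, edgeR called 13 genes in all and 0 members, 2 of which had an unadjusted p under 0.05, and the log2 fold changes shrank to -0.12 for Csf1r, -0.36 for Cd68, -0.21 for C1qc and -0.04 for C1qb, while C1qa turned to 0.04. Fragment length differed between the labels, and with it as a covariate 1 gene in all was called by edgeR. The log2 fold change then became 0.23 for Csf1r, 0.09 for Cd68 and 0.0024 for C1qc (adjusted p = 0.999 or above for each in edgeR), while H2-Eb1 and Mrc1 stayed higher. Genotype label and fragment length cannot be told apart with these 6 libraries.

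**Figure D3:**
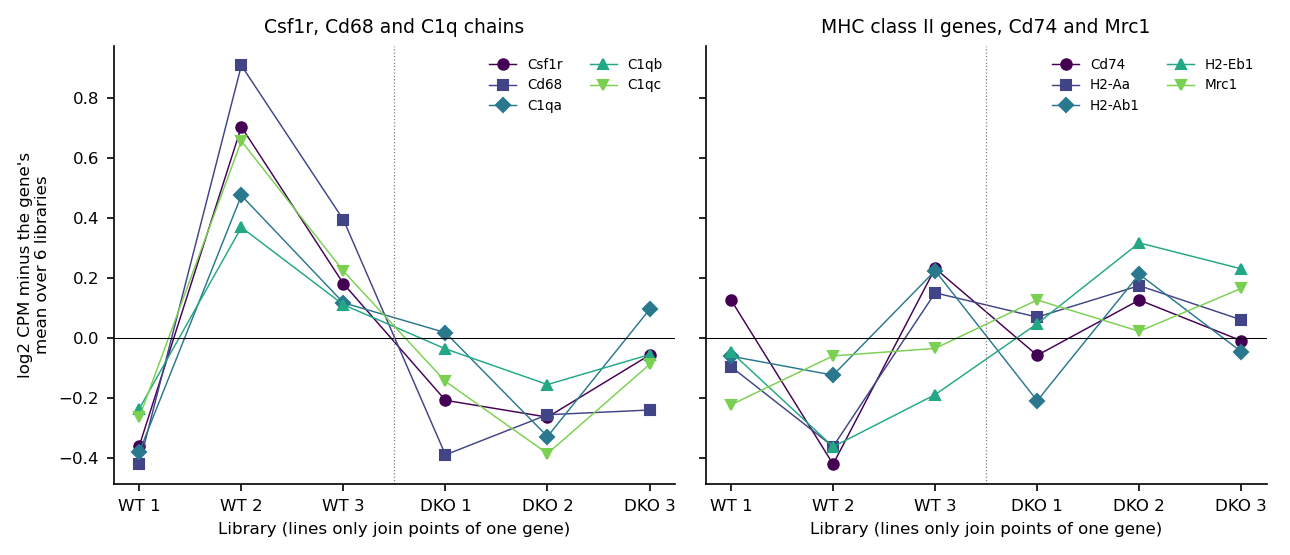
Log2 CPM of each gene minus its own mean over the 6 libraries, for Csf1r, Cd68 and the C1q chains (left) and for Cd74, the MHC class II genes and Mrc1 (right). The left panel peaks in WT 2 for all 5 genes, where Cd74, H2-Aa and H2-Eb1 of the right panel have their lowest points.

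The members fell into different orders over the libraries. Csf1r, Cd68, C1qa, C1qb and C1qc were all highest in WT 2 and second highest in WT 3. The ratio of WT 2 to WT 1 in CPM, with a 95% interval for counting error, was 2.51 (1.66 to 3.89) for Cd68, 2.09 (1.8 to 2.44) for Csf1r and 1.89 (1.58 to 2.28) for C1qc. It was 1.81 (1.48 to 2.23) for C1qa and 1.52 (1.28 to 1.81) for C1qb. This pair of libraries was singled out after the values were seen, and the ratios describe the spread within the WT label. For the others the ratio was near or under 1, at 1.1 (1.01 to 1.24) for Mrc1, 0.957 (0.826 to 1.11) for H2-Ab1, 0.832 (0.656 to 1.06) for H2-Aa, 0.803 (0.654 to 0.988) for H2-Eb1 and 0.684 (0.578 to 0.811) for Cd74.

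Summed TPM showed the same division. Cd74 and the class II genes came to 51.9, 59.6 and 56.4 TPM in DKO 1, 2 and 3 and to 52.4, 46.5 and 60.4 TPM in WT 1, 2 and 3. Over the C1q sum this made a ratio of 1.21, 1.70 and 1.27 in DKO 1, 2 and 3 and of 1.496, 0.723 and 1.24 in WT 1, 2 and 3, with WT 2 alone under 1. The coefficient of variation of CPM within the WT label was 43.0% for Cd68, 36.1% for Csf1r, 31.3% for C1qc, 28.7% for C1qa and 20.6% for C1qb. Within the DKO label it was 5.60%, 7.53%, 10.6%, 15.0% and 4.38% for the same genes. Mrc1 varied by 6.93% and 5.07% and H2-Ab1 by 13.2% and 14.9%, so the wider spread under the WT label was not shared by all members. Fragments were shortest in WT 2 (230.4 bases) and longest of the WT label in WT 1 (257.9 bases) and they ranged from 275.5 to 317.4 bases under the DKO label. The part of fragment length in the spread among WT libraries was not tested.

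Other macrophage genes, from a list of 50, were tested for 45, of which 3 were lower and 0 higher at an edgeR adjusted p under 0.05, beside 5.1% lower over all genes. Their median log2 fold change was -0.17. Trem2, a lipid-sensing receptor of phagocytes, was at 0.690, 0.740 and 0.780 TPM in DKO 1, 2 and 3 and at 1.54, 3.38 and 2.23 TPM in WT 1, 2 and 3. Every library labelled DKO lay under every one labelled WT (log2 fold change -1.70, SE 0.290, adjusted p of 0.0231 in edgeR). Its counts were small, at 16, 19 and 29 in DKO 1, 2 and 3 and 24, 62 and 39 in WT 1, 2 and 3. Csf2ra, the ligand-binding chain of the GM-CSF receptor, was at 1.80, 2.45 and 2.27 TPM against 3.64, 4.80 and 4.71 TPM, with no overlap (log2 fold change -0.97, SE 0.161, and an adjusted p of 0.0225 in edgeR). Gpnmb, a glycoprotein of lysosome-rich macrophages, was lower too, but did not exceed 0.250 TPM in any library (log2 fold change -1.41, SE 0.361, adjusted p of 0.0373 in edgeR).

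The 3 genes of this list with the highest mean TPM were Aif1, the calcium-binding protein known as IBA1 (808 ± 7.49 against 715 ± 31.5 TPM), and the lysosomal genes Lamp1 (416 ± 15.9 against 423 ± 15.9 TPM) and Ctsl (311 ± 56.8 against 311 ± 21.0 TPM; SD, n = 3). None of these passed the test, and all stood far above every member. Which cells of the testis gave these transcripts was not tested, so their levels are not a measure of macrophage content. Another 4 genes of the list were chosen after their values were seen. Adgre1, which encodes the macrophage marker F4/80, was at 1.53, 1.79 and 2.14 TPM in DKO 1, 2 and 3 and at 1.55, 2.47 and 1.58 TPM in WT 1, 2 and 3 (log2 fold change 0.03). Spi1, which encodes PU.1, was at 0.400, 0.390 and 0.420 TPM against 0.660, 0.820 and 0.580 TPM, with no overlap, at a log2 fold change of -0.75 that did not pass the test (edgeR adjusted p = 0.108). The CSF1R ligands Csf1 (-0.13) and Il34 (-0.64) did not pass the test either.

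WT 2 was the highest library for 27 of the 45 other macrophage genes (60%), beside 23.5% of all tested genes and 5 of the 10 members. WT 1 was the lowest for 17 of the 45 (37.8%), beside 13.8% of all tested genes and 5 of the 10 members, Mrc1 among them. Without WT 1, edgeR called 13 of these 45 genes, all lower, beside 1051 called lower of 17447 over all genes. Without WT 2 it called 0 (8 at an unadjusted p under 0.05), and Trem2 kept a log2 fold change of -1.39 (edgeR adjusted p = 0.0706). With fragment length as a covariate their log2 fold changes were -0.89 for Trem2, -0.56 for Csf2ra and -1.23 for Gpnmb (edgeR adjusted p = 0.999 for each). Over 14 to 16 alternatives the adjusted p ran from 0.00776 to 0.999 for Trem2, from 8.25e-05 to 0.999 for Csf2ra and from 0.0362 to 0.999 for Gpnmb, all with a negative change.

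Other antigen presentation genes, from a list of 30, were tested for 24, of which 2 were lower and 0 higher, beside 5.1% lower and 5.75% higher over all genes. The median log2 fold change was -0.10. H2-K1, the heavy chain of a class I molecule, was at 60.0, 66.2 and 70.8 TPM in DKO 1, 2 and 3 and at 79.35, 95.5 and 86.6 TPM in WT 1, 2 and 3 (log2 fold change -0.37, SE 0.0788, adjusted p of 0.0271 in edgeR). Ifi30, a lysosomal thiol reductase that unfolds antigens for class II loading, was at 3.75, 3.97 and 4.34 TPM against 5.06, 7.0 and 8.30 TPM (log2 fold change -0.77, SE 0.183, adjusted p of 0.0343 in edgeR). For both genes the labels did not overlap. Besides H2-K1, the highest means in this list were those of B2m, the light chain of class I (54.9 ± 1.52 against 57.25 ± 4.16 TPM), and Tapbp, which loads class I (44.3 ± 2.01 against 48.6 ± 3.68 TPM), and neither passed the test. Ciita, the master activator of class II and also chosen after its values were seen, was at 0.120 TPM or less in every library and was not tested. Without WT 2, edgeR called 0 of this list, 3 having an unadjusted p under 0.05, and the adjusted p over 16 alternatives ran from 0.00108 to 0.999 for H2-K1 and from 0.00792 to 0.999 for Ifi30. With fragment length as a covariate the log2 fold changes were -0.12 for H2-K1 and -0.44 for Ifi30.

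Other complement genes, from a list of 47, were tested for 36, of which 1 was higher and 0 lower, under the 5.75% higher and 5.1% lower over all genes. The median log2 fold change was -0.02. The 1 was Cd55b, a decay-accelerating inhibitor of complement known in the testis, at 192, 166 and 152 TPM in DKO 1, 2 and 3 and at 124, 115 and 136 TPM in WT 1, 2 and 3. The labels did not overlap, at a log2 fold change of 0.46 (SE 0.103) with an adjusted p of 0.0297 in edgeR. Its expected counts held fractions in all 6 libraries, so its reads are shared with another gene and the value is uncertain. Over 16 alternatives its adjusted p ran from 0.000734 to 0.999, and with fragment length as a covariate its log2 fold change was 0.06. The highest mean of the list was that of Clu, a complement inhibitor made in quantity by Sertoli cells (813 ± 115 against 968 ± 156 TPM), and the third was that of C7, a terminal component (29.35 ± 1.42 against 30.4 ± 10.3 TPM). Neither passed the test. C7 was highest in WT 2 (41.8 TPM) and lowest in WT 1 (21.75 TPM), as were Csf1r and C1qa.

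**Figure D4:**
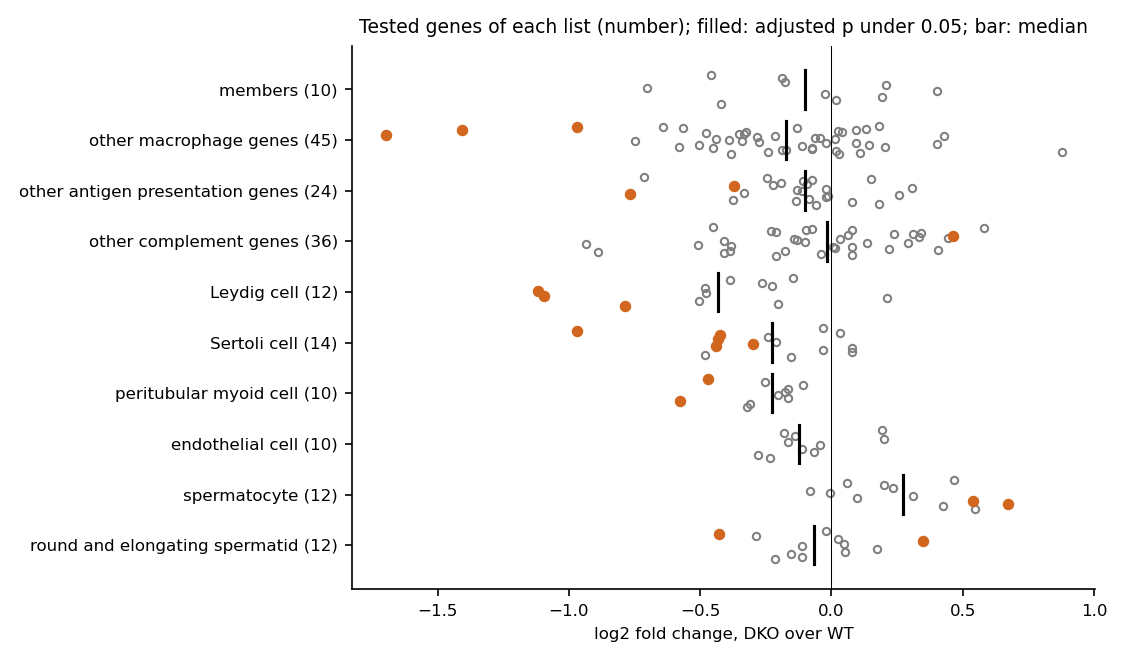
Log2 fold changes, libraries labelled DKO over those labelled WT, for the tested genes of each list, with the number tested in brackets, called genes filled and the list median as a bar. The 10 members hold no filled point, and the called macrophage genes lie at -0.97 or below.

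Markers of other leukocytes were measured beside the members. Of 15 T, B and NK cell genes 8 were tested and 0 called by edgeR (1 at an unadjusted p under 0.05), with summed levels of 6.80 to 7.04 TPM under the DKO label and 6.77 to 7.70 TPM under the WT label. Of 8 dendritic cell genes 4 were tested and 0 called (0 at an unadjusted p under 0.05). All 4 had a positive log2 fold change (median 0.24), and for 3 of them, Itgax, Flt3 and Zbtb46, the labels did not overlap in CPM, beside 18.4% of all genes. The dendritic sums were 11.8 to 13.1 TPM under the DKO label and 9.60 to 11.8 TPM under the WT label, and in CPM, where they did not overlap, 17.4 to 18.35 and 14.3 to 16.4. Zbtb46, at 7.41 to 9.49 TPM, made up most of each sum and stood above Csf1r and Cd68 on average. No other gene of the list exceeded 2.01 TPM (Flt3). Clec9a, Cd209a, Siglech and Xcr1 stayed at 0.18 TPM or less in every library. Of 11 neutrophil and mast cell genes 1 was tested and not called, S100a8 and Camp were at 0 in all libraries, and the sums were 0.580 to 0.850 and 0.710 to 1.06 TPM. Epididymal markers, of which 2 of 12 were tested and 0 called, had Lcn5 and Lcn8 at 0 throughout and sums of 16.6 to 21.6 and 15.0 to 15.9 TPM. Nearly all of these sums came from the 2 tested genes, Defb21 (7.88 to 15.15 TPM) and Rnase10 (4.96 to 7.24 TPM).

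Markers of the somatic cells around the macrophages were lower in part under the DKO label, and several were highest in WT 2. Over all genes 5.1% were called lower, and without WT 2 or with fragment length as a covariate 13 and 1 genes in all were called by edgeR. Of 12 Leydig cell genes 3 were lower and 0 higher (median log2 fold change -0.43), namely the steroidogenic genes Star and Hsd3b6 and the hormone gene Insl3, whose counts held fractions. The summed level of the 12 was 1354, 1652 and 982.9 TPM in DKO 1, 2 and 3 and 1643, 3304 and 2112 TPM in WT 1, 2 and 3. WT 2 was highest, as for Csf1r and C1q. Insl3 alone made up most of each sum, at 877, 1193 and 582 TPM in DKO 1, 2 and 3 and 1215, 2576 and 1503 TPM in WT 1, 2 and 3. Of 14 tested Sertoli cell genes 5 were lower, led by Defb19, Dhh and Rhox5 (median -0.23), with sums of 1461 to 1806 and 1893 to 2407 TPM. Of 10 peritubular myoid genes 2 were lower, Tagln and Tpm2 (median -0.23), with sums of 383.7 to 417 and 459.7 to 502.2 TPM. No endothelial gene of 10 was called by edgeR (1 at an unadjusted p under 0.05; median -0.12), with sums of 22.9 to 30.55 and 26.4 to 31.6 TPM.

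Of the germ cell lists, that of the spermatocytes went the other way in part. Over all genes 5.75% were called higher and 5.1% lower. Of 12 spermatocyte genes 2 were higher, Sycp3 and Hormad1, and 0 lower (median 0.27), with sums of 6227 to 6630 and 5979 to 6091 TPM. DKO 1, with the longest fragments, was highest for 9 of the 12 (75%, beside 27.9% of all tested genes). WT 2, with the shortest fragments, was lowest for 9 (75%, beside 28.3%). With fragment length as a covariate edgeR called 1 gene in all. Of 12 spermatid genes 1 was higher, Akap4, and 1 lower, Gapdhs (median -0.07), with sums of 113200 to 123400 and 106100 to 115600 TPM. In CPM the spermatid sums were 25350 to 29810 and 26660 to 29710, and 7 of the 12 genes had a negative log2 fold change. The part of these other cells in the levels of the members was not tested.

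**Figure D5:**
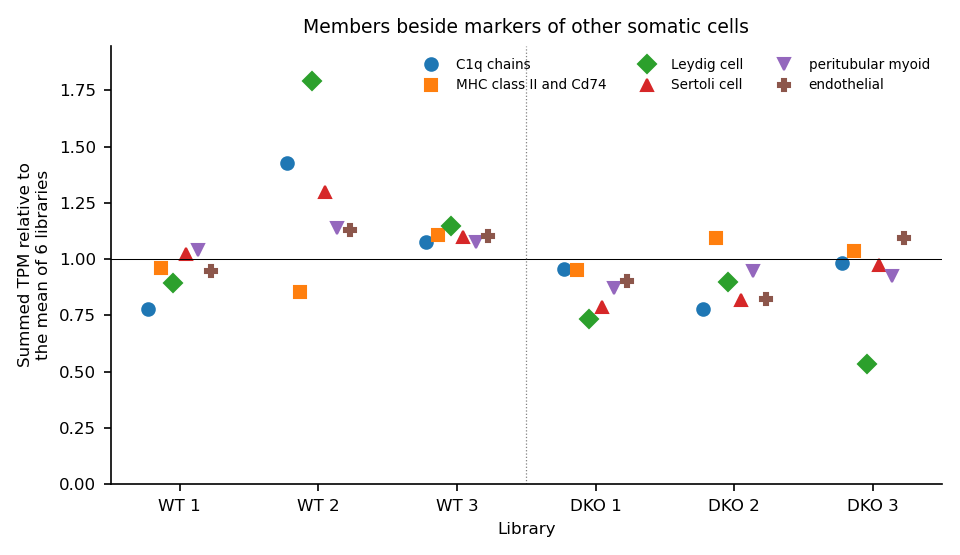
Summed TPM of the C1q chains, of the MHC class II genes with Cd74, and of 4 marker lists in each library, each divided by its own mean over the 6 libraries. In WT 2 the C1q chains stand at 1.43 and the Leydig genes at 1.79 times their mean while the class II sum stands at 0.852. Most of the Leydig sum is Insl3.

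The genes whose log2 CPM over the 6 libraries was most like the mean log2 CPM of the members, among 15069 genes, were Pcyox1l (Pearson r = 0.991), Arap1 (0.990), Itga5 (0.989), Atp6v0a1 (0.985), 4930452A19Rik (0.984) and Cpq (0.981). These are the highest of 15069 correlations, each over 6 libraries that share depth and fragment length differences. The members differ in their order over the libraries, so the values describe likeness to their mean only. They were not tested. The mean log2 CPM of the members itself was 2.98, 3.01 and 3.07 in DKO 1, 2 and 3 and 2.87, 3.24 and 3.20 in WT 1, 2 and 3. None of the 6 genes was called.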

How the data were processed

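RNA sequencing of 3 testis libraries labelled DKO and 3 labelled WT was used. The authors deposited, per the file headers, RSEM expected counts, TPM and FPKM for each gene. The deposited FPKM values were not used. The submitters' processing notes name STAR 2.7.0f, RSEM 1.2.31, DESeq2 1.12.3 and mm10. Strand handling is not given in the sources used here. Of the deposited expected counts 93.2% were whole, and those of the members all were. Csf1r, Cd74 and Mrc1 overlap the microRNA genes Mir6983, Mir5107 and Mir511. Subtracting each gene's deposited effective length from its length and adding 1 gives a fragment length, and its median over genes longer than 3000 bases was taken for each library.

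Expected counts were rounded and tested with edgeR 4.0.16 in R 4.3.3 (filterByExpr, TMM, glmQLFit, glmQLFTest, genotype as the only term), with Benjamini-Hochberg adjustment over 17110 genes and a threshold of 0.05. The biological coefficient of variation was 9.34%. The standard error is the size of the log2 fold change over the square root of F. Alternatives were other size factors, filters (none, or a mean count of 50), an effective-length offset, DESeq2 1.42.0, voom and log2(TPM + 1 or 0.1) in limma 3.58.1, fragment length as a covariate, thinning, and each library left out. Replicates are numbered in order of deposition and are not paired.

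The members and lists (other macrophage, antigen presentation and complement genes, and markers of T, B and NK cells, dendritic cells, neutrophils and mast cells, red blood cells, epididymis, Leydig, Sertoli, peritubular myoid and endothelial cells, spermatids and spermatocytes) were chosen with earlier results of these data known. Genes named were the members, Abcc5 and Abcc12, the called genes of each pathway list (up to 6) with its 3 highest mean TPM, up to 3 called genes of each marker list by smallest p, and the 6 genes most like the members at a mean log2 CPM of at least 0. Any other gene named, such as markers listed at 0, was chosen after its values were seen.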

Additional observations from a re-analysis of the deposited data

How the results depend on the processing

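The count of members called by edgeR was 0. It was 1 (H2-Eb1) without the filter on low counts, with a mean count of at least 50, with the effective-length offset and in DESeq2, and 0 to 4 with a library left out, the 4 without WT 1. Over all genes 1856 were called, against 2864 in DESeq2 (1640 higher, 1224 lower), 735 on log2(TPM + 1), 947 on log2(TPM + 0.1), 1 with fragment length as a covariate and 7 to 3029 with a library left out. Calls among other macrophage genes were 6 without the filter, 5 in DESeq2, 0 with the covariate and 0 to 13 with a library left out. Calls among antigen presentation genes were 1 on log2(TPM + 1), 0 with the covariate and 0 to 3 with a library left out. Calls among complement genes were 2 with DESeq2 size factors, without the filter, with a mean count of at least 50 and on log2(TPM + 0.1), 3 in DESeq2, 0 with the covariate and 0 to 4 with a library left out. The median of the members was 0.1086 with the covariate and -0.2118 to -0.0450 with a library left out.

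The direction of H2-Ab1 turned with the effective-length offset (0.0109). With the covariate it turned for H2-Ab1 (0.1224), Csf1r (0.2260), Cd74 (-0.1685), Cd68 (0.0948), C1qa (0.2241), C1qb (0.0661) and C1qc (0.0024). With a library left out the range crossed 0 for H2-Ab1 (-0.1530 to 0.0891), Cd74 (-0.1675 to 0.1509) and C1qa (-0.3820 to 0.0404). H2-Aa, H2-Eb1 and Mrc1 were higher in all 16 alternatives. Without DKO 1, WT 2 or WT 3 edgeR called 11, 13 and 7 genes in all, and none of Trem2, Csf2ra, Gpnmb, H2-K1, Ifi30 and Cd55b, whose log2 fold changes kept their direction. For Trem2 and Gpnmb, DESeq2 gave no adjusted p. The alternatives for the called genes of the other lists were chosen after seeing the data. Why the alternatives differ was not tested. Counts of the members were lowest for Cd68, at 31 to 99 per library. No paired analysis was possible because the labels carry no replicate numbers shared between the groups.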

Other observations

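The genes below were chosen after their values were seen. Red blood cell genes, 3 of 9 tested and 0 called by edgeR (0 at an unadjusted p under 0.05), had summed levels of 21.1 to 46.2 TPM under the DKO label and 23.5 to 25.0 TPM under the WT label. The highest sum was that of DKO 2, where the alpha globin gene Hba-a1 was at 19.55 TPM against 1.16 to 3.75 TPM in the other 5 libraries. DKO 2 was also the library with the lowest C1qa, C1qb and C1qc of the DKO label.

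Cfd, Fabp4 and Car3, known from fat cells, followed an order unlike that of Csf1r and C1q. Other fat cell genes that were measured are not reported here. Cfd, the complement protease factor D made by adipocytes, was at 1.65, 0.200 and 12.0 TPM in DKO 1, 2 and 3 and at 7.20, 0.200 and 20.2 TPM in WT 1, 2 and 3. Fabp4, a fatty acid carrier of fat cells and macrophages, was at 2.88, 1.14 and 19.8 TPM and at 6.23, 1.61 and 33.5 TPM. Both were highest in WT 3 and low in WT 2, the library in which Csf1r and C1q were highest. Car3 was at 1.08, 0.1 and 4.37 TPM and at 2.19, 0.11 and 6.23 TPM in the same order of libraries.

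Ccr2, the receptor that draws monocytes into tissues, was at 0.270, 0.190 and 0.210 TPM in DKO 1, 2 and 3 and at 0.11, 0.16 and 0.1 TPM in WT 1, 2 and 3. The labels did not overlap, but the difference did not pass the test (log2 fold change 0.88, SE 0.322, adjusted p of 0.0898 in edgeR). Lyz2, the lysozyme of macrophages, was at 19.8, 20.1 and 23.8 TPM and at 21.8, 43.2 and 30.3 TPM (log2 fold change -0.58, SE 0.177, adjusted p of 0.0548 in edgeR), with WT 2 and WT 3 highest as for Csf1r.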
